A study of Homo sapiens with 10 samples.

Results

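Coding genes that were expressed in HCT116, a human colorectal carcinoma line, and kept at most 5% of that level in its DNMT1 KO derivative are described. The members were the protein-coding genes of chromosomes 1 to 22 that had at least 1 CPM (a gene's count scaled to the total of its library) in every HCT116 library and a mean over the 4 DNMT1 KO libraries of at most 5% of the mean over the 6 HCT116 libraries. Of 10137 candidate genes that met the HCT116 minimum, 91 genes (0.898%) met the limit, out of 58884 genes in the tables, 18961 of them coding and autosomal. NIBAN1 and the genes whose symbols begin with ZNF, ZFP, ZSCAN, KRT, CLDN, HOX, PCDH or COL were left out of the candidates. Among those left-out symbols, 33 of 418 expressed genes (7.90%) met the same limits, and 30 of these were zinc finger genes of 364 expressed. The values that chose the 91 genes are the levels in DNMT1 KO and HCT116 themselves, so their differences between the cell lines are given as a description, with no test.

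Polyadenylated RNA was measured in 10 libraries from 2 groups of the same line. HCT116 contributed replicates 1, 2, 3, 7, 8 and 9, and DNMT1 KO contributed replicates 1 to 4. DNMT1 KO is a single derivative line made by targeting the DNMT1 gene, and the study treats it as a hypomorph because a truncated DNMT1 is still made. Both lines were grown in the same medium with no treatment. The study describes the libraries of each line as separately grown cultures. By the labels, both lines share batch 1 (replicate 1) and batch 2 (replicates 2 and 3), whereas DNMT1 KO replicate 4 alone makes up batch 3 and HCT116 replicates 7 to 9 make up batch 4. In bulk RNA, fewer cells that express a gene and less of its RNA per cell cannot be told apart.

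The HCT116 libraries held 35418732 to 85991812 counts and the DNMT1 KO libraries 26700853 to 55732013. Among genes with 1 to 10 counts, even counts made up 64.4 to 70.0% in 9 libraries and 39.9% in DNMT1 KO replicate 4. The targeted gene, DNMT1, had 88.3 to 234 CPM in the HCT116 libraries and 14.96 to 24.3 CPM in the DNMT1 KO libraries. Values with ± are mean and SD over 6 HCT116 or 4 DNMT1 KO libraries. Of the colon epithelial markers, EPCAM, CDH1, KRT8 and KRT18 were called lower in DNMT1 KO, with log2 fold changes of -2.08, -3.67, -2.69 and -2.29. KRT19 and CDX2 were not called (-1.06, adjusted p = 0.0763, and 0.23, adjusted p = 0.601), while CDX1 and VIL1 were at most 0.0526 CPM in every HCT116 library. VIL1 was called higher in DNMT1 KO (0.664 ± 0.159 CPM, log2 fold change 5.47, adjusted p = 1.71e-04). Markers of fibroblasts, blood cells and endothelium were at most 0.621 CPM in every HCT116 library except COL1A1, at 5.62 to 19.2 CPM. Of these, LUM, PDGFRB, PECAM1 and VWF were called higher in DNMT1 KO, where their means were 1.33 to 5.20 CPM, while PTPRC and DCN stayed at no more than 0.0359 and 0.144 CPM. The part of these marker levels in the losses described below was not tested.

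DNMT1 copies the methylation of CpG dinucleotides to the new DNA strand after replication, and lines with reduced DNMT1 carry less methylation. Methylation of a CpG-rich promoter goes with silencing, whereas genes with few CpGs at the start are often switched on and off by tissue-specific transcription factors. Colon carcinoma cells such as HCT116 keep many genes of surface epithelia active, among them growth factors that bind the EGF receptor, laminins of the basement membrane, serine proteases of the kallikrein family and transcription factors that maintain the epithelial state. Members of each of these groups were among the 91 genes.

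The 91 genes spanned a wide range of levels in HCT116. Their mean levels ran from 1.83 to 1090 CPM with a median of 20.8 CPM, against a median of 38.5 CPM over all candidates. In DNMT1 KO the mean level was at most 0.1% of HCT116 for 7 genes, at most 0.5% for 30, at most 1% for 40 and at most 2% for 49, and the median was 1.46%. All 91 genes were called lower in DNMT1 KO by edgeR's quasi-likelihood test, and every DNMT1 KO library lay below every HCT116 library for each of them, which the limit makes likely by itself. Of the 19279 genes tested, 941 (4.88%) had no overlap in this direction. Over all genes tested, 6.49% were called lower (1251 of 19279), and nothing is read from the difference. The median log2 fold change was -6.25 for the 91 genes and -0.07 for all genes tested. For 47 genes the highest DNMT1 KO library was also at most 5% of the lowest HCT116 library. Batches 1 and 2 hold both lines. Within batch 1, with 1 library per line, 84 of the 91 genes were at or under 5% of HCT116, with a median of 1.59% and a highest value of 13.9%. Within batch 2, with 2 libraries per line, 87 were, with a median of 1.08% and a highest value of 6.34%.

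**Figure D1:**
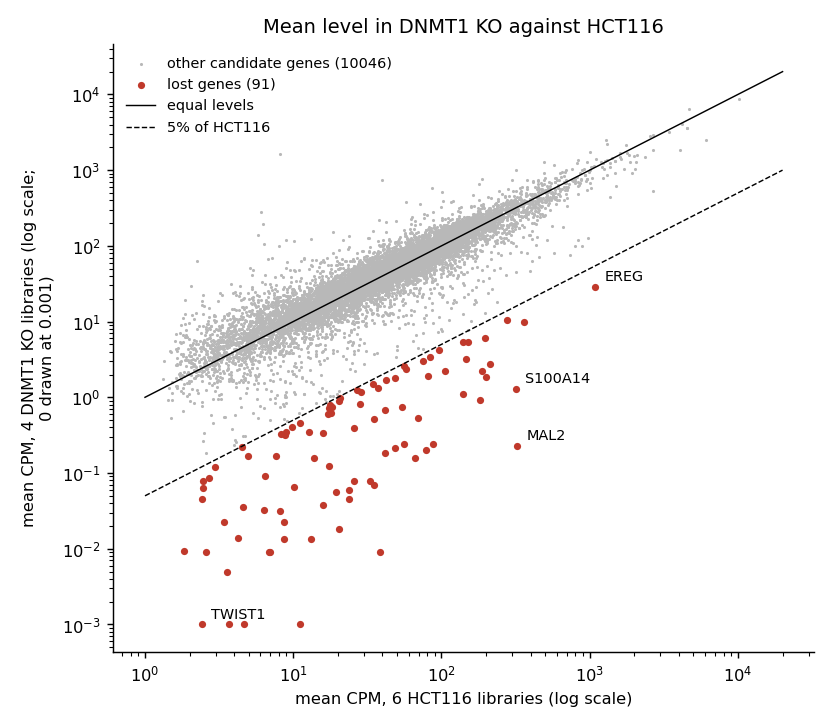
Mean level of each candidate gene in DNMT1 KO (vertical axis, CPM, log scale) against HCT116 (horizontal axis, CPM, log scale), with the 91 lost genes in red, the other 10046 candidates in grey and the 5% limit dashed. The lost genes lie at every HCT116 level from 1.83 to 1090 CPM, and 4 of them, with no DNMT1 KO count, are drawn at 0.001 CPM.

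The 5% limit falls in a continuous range of values. Just inside it were CGREF1 at 4.85%, ADAMTS14 at 4.73% and SHANK2 at 4.64% of HCT116. Just outside it were MPP7, a polarity scaffold, at 5.14% (152 ± 47.9 CPM in HCT116 and 7.82 ± 4.37 CPM in DNMT1 KO), RECQL, a DNA helicase, at 5.22% (16.6 ± 7.18 and 0.867 ± 0.299 CPM), and FMNL3, a formin, at 5.28% (9.09 ± 5.23 and 0.480 ± 0.339 CPM). In all, 26 candidates lay between 5% and 7.5%, these 3 included, and 50 between 5% and 10%.

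Growth factors and cytokines held the gene with the highest level. EREG (ENSG00000124882, hg38 chromosome 4, 74365145 to 74388749, plus strand) encodes epiregulin, a ligand of the EGF receptor. Its lowest, median and highest levels in HCT116 were 585, 957 and 1944 CPM, and DNMT1 KO replicates 1 to 4 had 27.0, 16.4, 42.7 and 29.2 CPM. AREG (ENSG00000109321, chromosome 4, 74445136 to 74455005, plus strand), which encodes amphiregulin, another ligand of that receptor, had 64.9, 134 and 446 CPM in HCT116 and 1.76, 1.58, 6.08 and 1.69 CPM in DNMT1 KO. EREG thus kept a mean of 2.65% of its HCT116 level and AREG 1.31%, and replicate 3 was the highest DNMT1 KO library for each. The other 3 members of the group were LIF, a cytokine of the interleukin-6 family (139 ± 52.3 against 5.45 ± 2.58 CPM), IL18, a cytokine released by inflammasomes (83.7 ± 28.9 against 3.44 ± 1.18 CPM), and WNT3A, a Wnt ligand (4.25 ± 1.65 CPM against 2 counts in all 4 DNMT1 KO libraries). EREG and AREG lie next to each other on the same strand, and the 300 bases around their starts (250 before to 50 after, RefSeq, GRCh38.p14) are shown. These starts were chosen for the high HCT116 means of the genes among members within 500 kb of another member. Capitals mark CpG dinucleotides.
EREG, chr4:74364895-74365194, plus strand: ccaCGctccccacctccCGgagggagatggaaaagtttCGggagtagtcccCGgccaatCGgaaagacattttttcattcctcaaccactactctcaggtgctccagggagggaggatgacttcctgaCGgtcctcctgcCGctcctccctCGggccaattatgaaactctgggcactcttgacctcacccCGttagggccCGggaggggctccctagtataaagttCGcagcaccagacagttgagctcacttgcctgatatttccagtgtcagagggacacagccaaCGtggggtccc
AREG, chr4:74444886-74445185, plus strand: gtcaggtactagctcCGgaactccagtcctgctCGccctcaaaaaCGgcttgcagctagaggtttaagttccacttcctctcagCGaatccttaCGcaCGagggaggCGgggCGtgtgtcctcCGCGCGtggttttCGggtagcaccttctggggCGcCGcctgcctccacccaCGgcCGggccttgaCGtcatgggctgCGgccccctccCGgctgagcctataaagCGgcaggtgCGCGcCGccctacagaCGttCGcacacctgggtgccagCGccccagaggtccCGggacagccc
The EREG window holds 12 CpGs, an observed over expected ratio of 0.49, and the AREG window 27, a ratio of 0.82. Both hold the letters TATAAA, and of the pair AREG alone holds TGACGTCA and CCGGAA.

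Other ligands of the same receptors were compared. Among 11 ligands of the ErbB receptors, a list written with the members known, 10 were tested, 5 were called lower in DNMT1 KO and 1 higher. Beside EREG and AREG, the lower ligands were TGFA, transforming growth factor alpha (159 ± 49.7 against 10.3 ± 12.2 CPM, log2 fold change -4.18, adjusted p = 1.62e-04), BTC, betacellulin (10.4 ± 7.27 against 1.91 ± 1.75 CPM, -2.64, adjusted p = 0.00809), and EPGN, epigen (0.493 ± 0.309 against 0.152 ± 0.0888 CPM, -1.91, adjusted p = 0.0469). TGFA ranged from 3.33 to 28.6 CPM in the DNMT1 KO libraries, and without replicate 3, the highest, its mean was 4.16 CPM (-5.42, adjusted p = 7.59e-07). BTC was likewise at -3.46 without that replicate. EPGN lost its call without any one DNMT1 KO library and without HCT116 replicate 1, 2, 3 or 8 (adjusted p = 0.0509 to 0.152). EPGN and BTC both start within 500 kb of EREG or AREG. NRG1, neuregulin 1, was higher (2.07 ± 1.66 against 56.0 ± 20.5 CPM, 4.53, adjusted p = 1.61e-04), and HBEGF was not called (-1.55, adjusted p = 0.158). None of the 3 tested receptors was called by edgeR: EGFR had a log2 fold change of -0.72 (adjusted p = 0.150), ERBB3 of -0.58 (adjusted p = 0.309) and ERBB2 of -0.17 (adjusted p = 0.686). Of 10 output genes of the ERK pathway downstream of these receptors, DUSP4 (-2.85, adjusted p = 8.21e-04) and the member EPHA4 were lower and ETV4 (1.42, adjusted p = 6.12e-04) was higher, while DUSP6, SPRY4 and CCND1 were not called (0.34, 0.52 and -0.46).

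Calcium-binding, cytoskeletal and vesicle proteins made up 11 members. S100A16 (ENSG00000188643, chromosome 1, 153606886 to 153613145, minus strand), an EF-hand calcium-binding protein, had lowest, median and highest levels of 222, 330 and 548 CPM in HCT116 and 8.82, 8.72, 10.1 and 12.4 CPM in DNMT1 KO replicates 1 to 4. S100A14 (ENSG00000189334, chromosome 1, 153614255 to 153616986, minus strand), another EF-hand protein, had 95.7, 289 and 672 CPM in HCT116 and 1.55, 1.30, 1.54 and 0.824 CPM in DNMT1 KO. The genes start 3.84 kb apart, and S100A14 kept less of its HCT116 level (0.407%) than S100A16 (2.78%). Per kilobase of exon these were the highest members in HCT116, at 251 CPM per kb for S100A14 and 212 for S100A16, above EREG at 191. Their starts, chosen in the same way as those of EREG and AREG, are shown in the same format and were poor in CpG.
S100A16, chr1:153613088-153613387, minus strand: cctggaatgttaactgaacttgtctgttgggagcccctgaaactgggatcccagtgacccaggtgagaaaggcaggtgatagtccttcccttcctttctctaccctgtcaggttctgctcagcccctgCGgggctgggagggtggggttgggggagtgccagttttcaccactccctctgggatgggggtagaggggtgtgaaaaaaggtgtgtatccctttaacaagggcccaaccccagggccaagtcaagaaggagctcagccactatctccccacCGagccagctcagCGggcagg
S100A14, chr1:153616276-153616575, minus strand: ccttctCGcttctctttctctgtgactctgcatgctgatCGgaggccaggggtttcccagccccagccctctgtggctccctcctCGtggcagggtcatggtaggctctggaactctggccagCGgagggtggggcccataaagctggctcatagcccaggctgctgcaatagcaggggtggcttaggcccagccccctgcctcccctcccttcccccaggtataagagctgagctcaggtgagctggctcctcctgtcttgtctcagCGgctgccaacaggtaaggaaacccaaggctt
The windows hold 3 and 5 CpGs, observed over expected ratios of 0.12 and 0.17. The window of EMP1, chosen in the same way and not printed, holds 4 CpGs, a ratio of 0.27.

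FLNC, filamin C, which cross-links actin, was at 188 ± 114 CPM in HCT116 (lowest 85.5, median 154, highest 331) and at 2.67, 1.81, 2.26 and 2.17 CPM in the DNMT1 KO libraries. MLPH, melanophilin, which links vesicles carrying RAB27A to myosin, had 28.0, 50.8 and 104 CPM in HCT116 and 0.0534, 0.117, 0.772 and 0.0374 CPM in DNMT1 KO. CALB2, calretinin, had 3.14, 12.1 and 47.3 CPM in HCT116 and 0.534, 0.467, 1.51 and 0.412 CPM in DNMT1 KO. MLPH and CALB2 were each highest in replicate 3 of both lines. The Ca2+-binding protein CGREF1 had 2.21, 3.97 and 8.99 CPM in HCT116 and 0.160, 0.292, 0.0897 and 0.337 CPM in DNMT1 KO. The membrane-binding annexins ANXA3 (4.42% of HCT116) and ANXA10 (1 DNMT1 KO count in all), the neuronal calcium sensor VSNL1 (0.197%), the RAB27 effector SYTL3 (4.39%) and the C2-domain protein MCTP2 (0.642%) completed the group. Of 10 annexins tested, 4 were called lower (ANXA1, -1.93, and ANXA2, -1.17, beside the members). ANXA2 fell short of the fold limit without DNMT1 KO replicate 3 (-0.95) or HCT116 replicate 1 (-0.98). Of 9 tested genes of RAB27 and its effectors, SYTL1 was lower (-1.65, adjusted p = 0.0474), like the members MLPH and SYTL3, but lost its call without any one DNMT1 KO library and without HCT116 replicate 1, 2 or 3 (adjusted p = 0.0556 to 0.134). SYTL2 was higher (3.88, adjusted p = 1.73e-06), and RAB27A and RAB27B were not called (0.42 and -0.57).

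Cell surface proteins numbered 12. MAL2, which takes part in transcytosis in polarised epithelium, had lowest, median and highest levels of 164, 304 and 506 CPM in HCT116 and 0.134, 0, 0.377 and 0.412 CPM in DNMT1 KO, a mean of 0.0708% of HCT116. EMP1, epithelial membrane protein 1, had 140, 160 and 285 CPM in HCT116 and 0.481, 0.584, 1.33 and 1.35 CPM in DNMT1 KO. Both genes were high in every HCT116 library, and MAL2 had no count in DNMT1 KO replicate 2. RAMP1, a subunit of the receptor for calcitonin gene-related peptide, had 17.6, 22.3 and 49.6 CPM in HCT116 and 0.107, 0.117, 0.0538 and 0.0374 CPM in DNMT1 KO. PROM2, prominin 2, had 1.28, 5.18 and 25.1 CPM in HCT116 and 0.294, 0.234, 0.538 and 0.187 CPM in DNMT1 KO. PODXL2, a sialomucin, had 1.35, 4.06 and 8.99 CPM in HCT116 and 0.294, 0.156, 0.108 and 0.112 CPM in DNMT1 KO. The prominins PROM1 and PROM2 were thus both members, at 0.246% and 3.57% of HCT116. The group also held MSLN, mesothelin (1.64%), RNF43, a ubiquitin ligase that removes Wnt receptors (0.446%), GJB5, a connexin (4.12%), PTPRM, a receptor phosphatase (3.92%), and EPHA4, an ephrin receptor (1.42%).

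Matrix and protease genes were the largest group, with 16 members. ADAM19, a membrane metalloprotease, had lowest, median and highest levels of 150, 239 and 547 CPM in HCT116 and 9.09, 12.1, 12.6 and 7.64 CPM in DNMT1 KO. HAS3, a hyaluronan synthase, had 128, 179 and 323 CPM in HCT116 and 6.20, 6.17, 5.63 and 6.03 CPM in DNMT1 KO, which lie close together. LAMB3, a chain of the epithelial laminin 332, had 26.1, 57.6 and 425 CPM in HCT116 and 4.12, 4.19, 9.55 and 3.97 CPM in DNMT1 KO. LAMA3, another chain of that laminin, had 1.73, 3.89 and 28.9 CPM in HCT116 and 0.107, 0.214, 0.897 and 0.112 CPM in DNMT1 KO. LAMA4, found in other laminins, was at 2.71 ± 1.80 and 0.0871 ± 0.0800 CPM. Of 10 laminin chains tested, LAMB3, LAMA3 and LAMA4 were called lower. LAMC3 (11.2 ± 6.10 against 63.8 ± 20.5 CPM, 2.299, adjusted p = 3.76e-04) and LAMA2 (5.86 ± 1.22 against 13.6 ± 4.59 CPM, 1.01, adjusted p = 0.0178) were higher. LAMA2 lost its call without DNMT1 KO replicate 2 (0.75, adjusted p = 0.105) or HCT116 replicate 3 (0.98).

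The serine proteases KLK6 and KLK10 had means of 0.445% and 4.11% of HCT116. KLK6 had lowest, median and highest levels of 15.8, 31.5 and 107 CPM in HCT116 and 0.214, 0.273, 0.233 and 0.150 CPM in DNMT1 KO. KLK10 had 7.84, 21.8 and 57.3 CPM in HCT116 and 0.935, 1.32, 1.56 and 0.899 CPM in DNMT1 KO. ADAMTS14, which trims procollagen, had 12.1, 19.8 and 30.9 CPM in HCT116 and 0.267, 0.350, 3.01 and 0.300 CPM in DNMT1 KO, so replicate 3 alone reached 14.5% of the HCT116 mean. The other members were TINAGL1, a basement membrane protein (4.13%), CPA4 (3.69%) and carboxypeptidase M (3.49%), which are carboxypeptidases, PRSS3, a trypsin (0.0233%), PXDN, which cross-links collagen IV (0.239%), NPNT, an integrin ligand (2.94%), TFPI, an inhibitor of coagulation (1.53%), and TIMP3, an inhibitor of metalloproteases (0.131%). PRSS3 has close relatives in the genome, so how its reads were assigned is uncertain.

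Enzymes of metabolism and of sugar transfer numbered 11. HS3ST1, which adds sulfate to heparan, had lowest, median and highest levels of 120, 200.1 and 292 CPM in HCT116 and 1.92, 1.54, 1.92 and 2.02 CPM in DNMT1 KO. ACSL5, an acyl-CoA synthetase, had 68.9, 121 and 271 CPM in HCT116 and 2.65, 1.62, 1.76 and 6.70 CPM in DNMT1 KO. MGLL, monoacylglycerol lipase, had 15.02, 25.1 and 85.7 CPM in HCT116 and 1.12, 1.28, 3.64 and 0.712 CPM in DNMT1 KO. HS3ST1 was similar in all DNMT1 KO libraries, while ACSL5 was highest in replicate 4 and MGLL in replicate 3. SQLE, squalene epoxidase, which acts early in sterol synthesis, fell to 0.762% (69.9 ± 14.3 against 0.532 ± 0.360 CPM). Of 20 cholesterol synthesis enzymes tested, SQLE alone was called lower, and HMGCS1 (1.48, adjusted p = 0.0129), CYP51A1 (1.08, adjusted p = 0.0198) and FDFT1 (1.05, adjusted p = 0.0204) were called higher. These 3 calls each rested on single libraries: without DNMT1 KO replicate 4 the adjusted p-values were 0.0811, 0.0975 and 0.0868, and CYP51A1 was also lost without replicate 1 (0.0742) and FDFT1 without replicate 2 (0.0770). B3GALT5 and B3GALT1, galactosyltransferases, kept 0.156% and 0.349%, and of the other 2 tested genes of the family neither B3GALT6 (-1.15, adjusted p = 0.0931) nor B3GALT9 (-0.13, adjusted p = 0.822) was called. The remaining members were GDA, guanine deaminase (2.13%), DHRS3 (2.35%) and SDR16C5 (0.512%), which act on retinoids, the cytochrome CYP4F11 (4.33%) and the phosphatase ACP7 (2.71%).

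Signalling proteins inside the cell numbered 10. PDE4B, which breaks down cyclic AMP, was at 140 ± 58.7 CPM in HCT116 and 1.11 ± 0.419 CPM in DNMT1 KO, and the tyrosine kinase SYK was at 13.2 ± 5.13 CPM against 2 counts in all 4 DNMT1 KO libraries. The other members were SWAP70, an actin-binding exchange factor (1.37%), CASP4, an inflammatory caspase (4.51%), the kinase RPS6KA2 (2.12%), DDIT4L, a regulator of mTOR (0.241%), ITPKB, an inositol kinase (1.16%), the adaptor SKAP1 (0.387%), PLCL2 (0.128%) and RGCC (3.22%).

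Transcription regulators numbered 8. ELF3 and EHF, factors of the ETS family that act in epithelia, were at 87.6 ± 54.8 and 66.5 ± 18.8 CPM in HCT116 and at 0.241 ± 0.0421 and 0.156 ± 0.0332 CPM in DNMT1 KO. GRHL2, a grainyhead factor that maintains epithelial junctions, was at 35.3 ± 15.97 and 0.515 ± 0.396 CPM. Each of these kept under 2% of its HCT116 level and had a count in every DNMT1 KO library. Of 8 tested genes of the grainyhead, OVOL and epithelial ETS families, the 3 members, OVOL1 (14.8 ± 6.66 against 3.02 ± 0.473 CPM, log2 fold change -2.49, adjusted p = 1.32e-04) and ELF5 (-3.51, adjusted p = 0.00508) were lower. ELF5 was low in both lines, at 0.550 ± 0.411 CPM in HCT116 and 0.0558 ± 0.0478 CPM in DNMT1 KO, where it had 9 counts in all. GRHL1 (-0.39, adjusted p = 0.551), GRHL3 (0.63, adjusted p = 0.401) and OVOL2 (0.92, adjusted p = 0.166) were not called. MKX, a homeobox factor of tendon, had lowest, median and highest levels of 40.5, 53.0 and 94.2 CPM in HCT116 and 1.12, 0.857, 7.38 and 0.974 CPM in DNMT1 KO, so that replicate 3 supplied most of its remaining level. TWIST1, a factor of mesenchyme, had 2.12, 2.42 and 2.76 CPM in HCT116 and no count in any DNMT1 KO library. The other members were the corepressor NRIP1 (0.252%), ETS1 (3.56%) and OSR1 (1.86%), whose 10 counts in DNMT1 KO came from 1 library.

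Channels and synaptic proteins numbered 6. ANO1, a calcium-activated chloride channel, had lowest, median and highest levels of 40.6, 67.3 and 148 CPM in HCT116 and 2.40, 1.93, 4.92 and 2.77 CPM in DNMT1 KO. SHANK2, a synaptic scaffold, had 9.03, 16.2 and 61.8 CPM in HCT116 and 0.481, 0.701, 3.59 and 0.262 CPM in DNMT1 KO. GRIN2B, a subunit of the NMDA receptor, had 12.4, 17.2 and 29.8 CPM in HCT116 and 0, 0.0389, 0.108 and 0.0749 CPM in DNMT1 KO. SHANK2 reached 13.2% of its HCT116 mean in DNMT1 KO replicate 3, whereas GRIN2B stayed at or below 0.108 CPM. ANO5, an anoctamin of muscle and bone, had 3.26, 3.45 and 4.47 CPM in HCT116, a narrow range, and no count in DNMT1 KO. Of 8 anoctamins tested, ANO9 was also lower (-1.52, adjusted p = 0.00456), and ANO6 and ANO10 were not called (0.16 and 0.20). SLC15A1, the intestinal peptide transporter, kept 0.654%. The RefSeq start of ANO5 is shown as that of a gene with no DNMT1 KO count.
ANO5, chr11:22192356-22192655, plus strand: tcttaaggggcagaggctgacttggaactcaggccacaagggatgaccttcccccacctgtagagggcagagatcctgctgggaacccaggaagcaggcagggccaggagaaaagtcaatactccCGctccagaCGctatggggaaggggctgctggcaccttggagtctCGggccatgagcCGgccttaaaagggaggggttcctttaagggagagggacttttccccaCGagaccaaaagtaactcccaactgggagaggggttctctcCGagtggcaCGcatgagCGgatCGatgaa
This window holds 9 CpGs, a ratio of 0.36. It lies 479 bases from the start of the canonical GENCODE transcript, whose window has a ratio of 0.84, so the CpG class of ANO5 depends on the start used.

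DNA repair, chromatin and other proteins numbered 6. MGMT, which repairs alkylated guanine, was at 8.67 ± 3.60 CPM in HCT116 and had 3 counts in all in DNMT1 KO. Of 17 DNA repair genes tested, 2 were called lower, MGMT among them. ODAD2, which docks dynein arms in cilia, had lowest, median and highest levels of 10.4, 15.9 and 30.01 CPM in HCT116 and 0.481, 0.545, 1.51 and 0.487 CPM in DNMT1 KO. The other members were FAM111B, a protease (0.193%), FBXO25, a ubiquitin ligase subunit (0.0901%), VASH2, which removes tyrosine from tubulin (4.12%), and NPM2, a histone chaperone (4.07%). No role is given for C1orf116 (0.709%), CCDC9B (3.499%), BLACAT1 (2.19%), C6orf141 (0.513%), EVA1A (2.60%) and ENSG00000269825. The last had 1.36, 4.02 and 11.2 CPM in HCT116 and no count in DNMT1 KO. It overlaps ZNF83 on the same strand, so its reads cannot be told apart from those of that gene where they share exons.

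**Figure D2:**
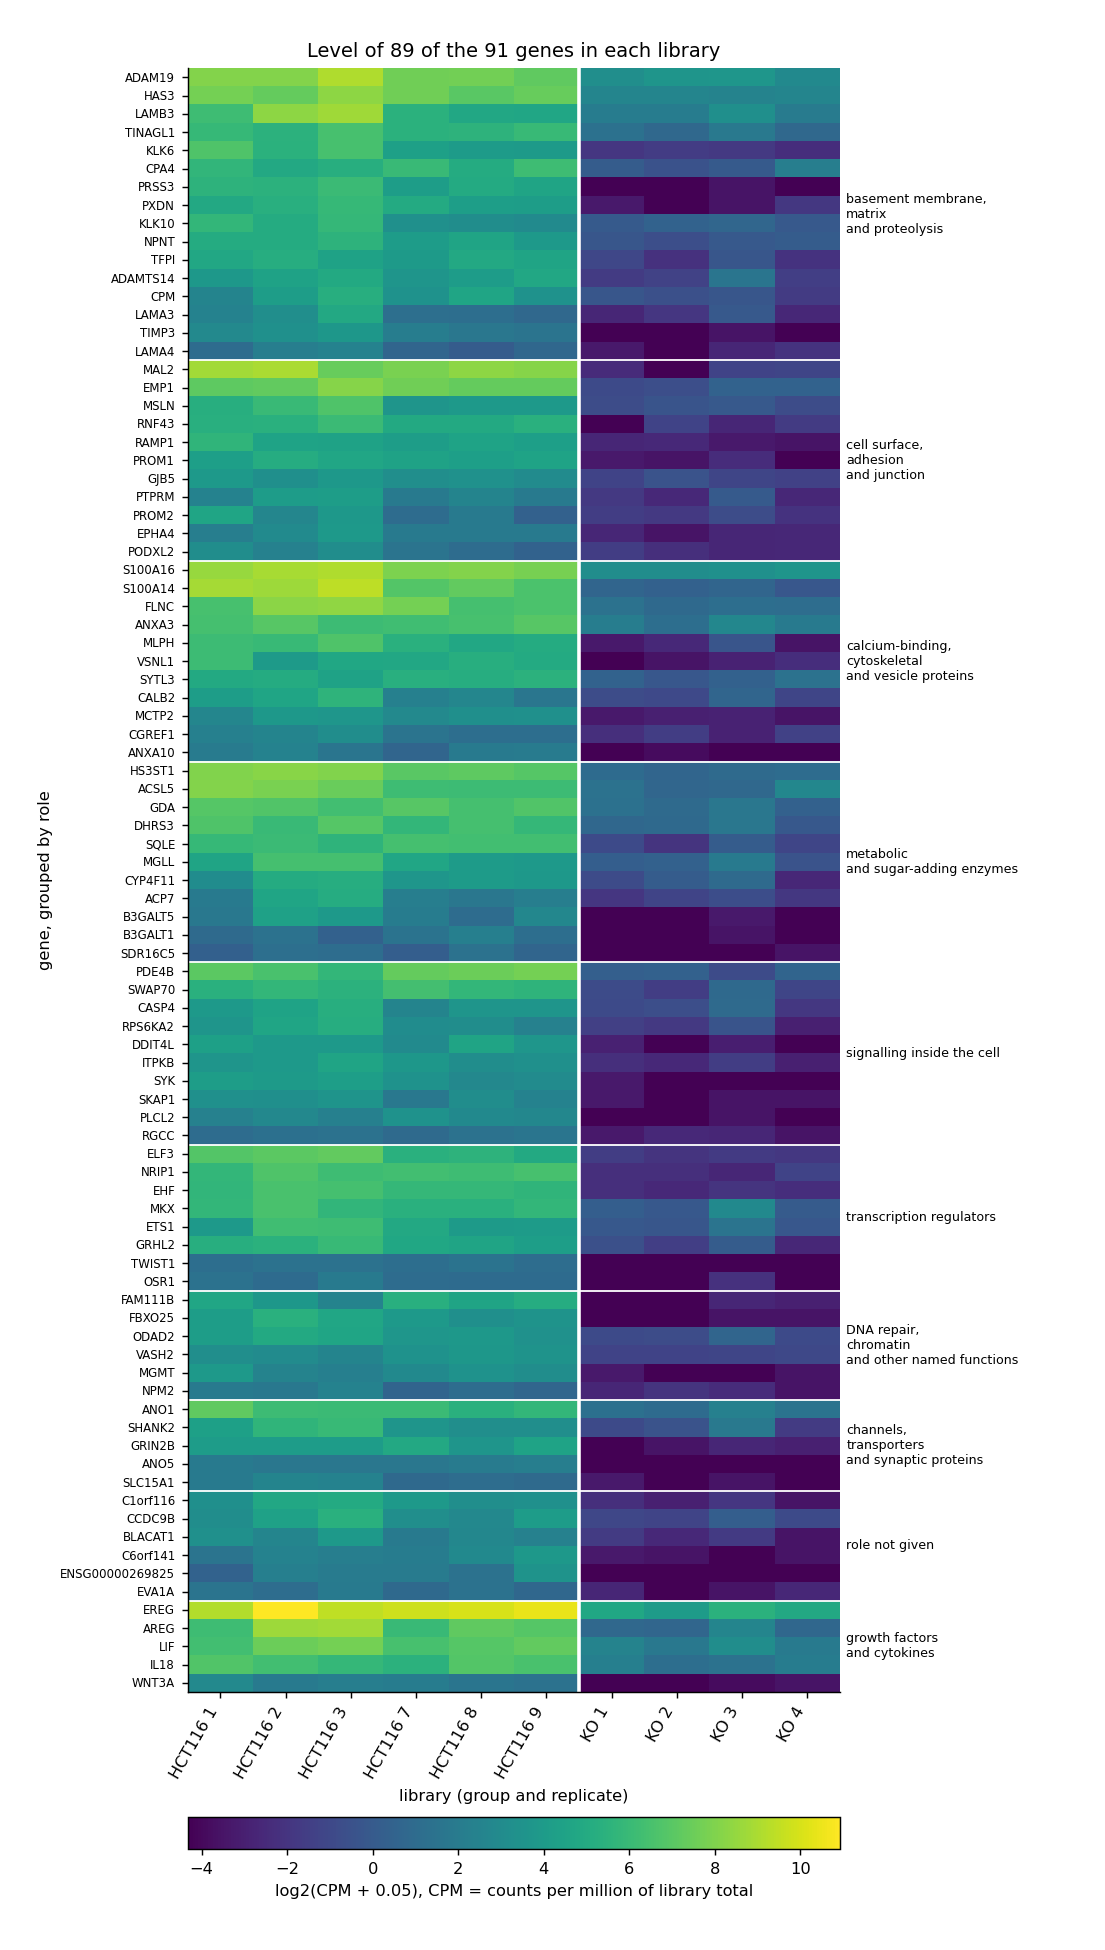
Level of 89 of the 91 genes (rows, grouped by role) in each library (columns), as log2(CPM + 0.05). All 4 DNMT1 KO columns are darker than the 6 HCT116 columns in every row, the HCT116 columns differ among themselves for genes such as LAMB3 and LAMA3, and DNMT1 KO replicate 3 is brighter than the other DNMT1 KO libraries for genes such as MKX and ADAMTS14.

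The depth limits how far a loss can be followed. Of the 91 genes, 4 had no count in DNMT1 KO, among them ENSG00000269825, ANO5 and TWIST1. Against a floor of 3 counts over the 4 libraries together, ENSG00000269825 was at least 302-fold lower, ANO5 at least 214-fold and TWIST1 at least 137-fold. A further 21 genes had 1 to 10 counts in DNMT1 KO in all. Of these, PRSS3 had 11941 counts in HCT116 and 2 in DNMT1 KO, a ratio per count sequenced of 2866 (exact 95% interval 793 to 23670). MGMT had a ratio of 492.8 (169 to 2391) and SYK of 1002 (277 to 8276). The intervals and floors cover counting error alone, and are too narrow where counts come in mate pairs. At the other end, 61 genes had a count in every DNMT1 KO library.

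The remaining level was not spread evenly over the DNMT1 KO libraries. Of the 87 genes with a count, 47 were highest in replicate 3, 20 in replicate 4, 13 in replicate 1 and 7 in replicate 2. The levels of the 91 genes summed to 110, 90.0, 178 and 115 CPM in replicates 1 to 4, against 4415 to 8218 CPM in the HCT116 libraries, and 19, 24, 9 and 16 of the genes had no count there. Without replicate 3 the number of genes that met the rule was 110. The genes with the largest share of the HCT116 mean in a single library were ADAMTS14 (14.5%), SHANK2 (13.2%) and MKX (13.1%), each in replicate 3. Leaving out replicate 3 moved the log2 fold change from -4.66 to -6.00 for MKX, from -4.58 to -6.22 for ADAMTS14, from -4.60 to -5.94 for SHANK2, from -7.90 to -9.65 for MLPH and from -4.76 to -5.93 for LAMA3. Among the genes named in full, it moved by more than 1.5 times also for AREG (-6.45 to -7.15), MGLL (-4.82 to -5.49), CALB2 (-4.75 to -5.36) and GRIN2B (-8.57 to -9.18), and without replicate 4 for ACSL5 (-5.74 to -6.41). Some genes not named in full had DNMT1 KO counts in replicate 3 alone. For example, OSR1 had 10 counts there, B3GALT5 had 3, and PRSS3, PLCL2, TIMP3 and B3GALT1 had 2 each. Counts of 2 or 3 are too few to show that a gene depended on that library. Among HCT116 libraries, leaving out replicate 3 gave -4.35 for LAMB3, -4.15 for CALB2 and -3.79 for LAMA3, and leaving out replicate 1 gave -4.27 for PROM2.

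Where the 91 genes lie was not used by the rule. They fell on 20 of the 22 autosomes, with none on chromosomes 14 and 20 and most on chromosomes 1 (14 genes), 2 (11) and 11 (9). As a share of candidates this was 1.25%, 1.51% and 1.42%, and chromosomes 4 (8 genes, 2.02%) and 21 (2 genes, 2.25%) had the highest shares. Another member lay within 500 kb of 16 of the 91 genes (17.6%), while a member lay within 500 kb of 494 of the 10046 other candidates (4.92%). The 16 formed 8 pairs, which were S100A16 and S100A14, EREG and AREG, KLK6 and KLK10, MKX and ODAD2, ANO1 and SHANK2, EMP1 and GRIN2B, MLPH and RAMP1, and PODXL2 and MGLL. In the first 3 pairs the genes belong to the same family and resemble each other in sequence. In the other 5 pairs they do not. The nearest tested coding genes on each side of the 91 genes that were not members were 140 genes, of which 30 (21.4%) were called lower in DNMT1 KO and 2 (1.43%) higher. Among all 12752 tested autosomal coding genes that were not members, 6.67% were lower and 7.83% higher. The medians of the log2 fold change were -0.38 and -0.05.

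Single neighbourhoods differed. Around S100A16 and S100A14, 5 of 20 other tested coding genes within 500 kb were lower and 1 was higher. The lower genes were S100A6, S100A4, S100A3, S100A2 and S100A13, with log2 fold changes from -2.70 to -1.44, against -5.37 and -8.13 for the members, while CHTOP, SNAPIN and ILF2 on the far side were not called (-0.10, -0.30 and -0.25). S100A2 lost its call without any one DNMT1 KO library and without HCT116 replicate 1, 7, 8 or 9 (adjusted p = 0.0517 to 0.133), and was at -0.88 without HCT116 replicate 1. S100A3 lost its call without DNMT1 KO replicate 1, 2 or 3 and without the same HCT116 replicates (0.0527 to 0.0998). NPR1, 65.5 kb from the start of S100A16, was higher (0.0260 against 3.64 CPM, 6.75, adjusted p = 3.60e-06). Around KLK6 and KLK10, KLK5 (-5.93, adjusted p = 0.00141), KLK7 (-1.87, adjusted p = 0.0296) and KLK8 (-1.98, adjusted p = 0.00437) were lower. KLK7 lost its call without any one DNMT1 KO library and without HCT116 replicate 1 (adjusted p = 0.0631 to 0.0838), and KLK5 was at -5.07 without HCT116 replicate 1. KLK2 had no count in HCT116 and 1.71 ± 0.167 CPM in DNMT1 KO, and 6 of 24 tested neighbours there were higher. Over the family, 5 of 9 kallikreins tested were lower and 1 was higher.

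Beside MKX and ODAD2 lay MPP7, just outside the 5% limit (-4.49), and RAB18, MASTL and ACBD5 on the other side were not called (-0.55, -0.18 and -0.23). Beside ANO1, FGF19, a growth factor gene 282 kb before it, was lower (167 ± 149 against 17.1 ± 18.4 CPM, -3.49, adjusted p = 0.00539), and was at 8.01 CPM (-4.55) without DNMT1 KO replicate 3. FADD, PPFIA1 and CTTN, which lie between ANO1 and SHANK2, were not called (0.01, -0.24 and -0.58), nor was CCND1 (-0.46). Near EMP1 and GRIN2B, GPRC5A, an orphan receptor of epithelia, was lower (889 against 100.1 CPM, -3.36, adjusted p = 1.31e-05), whereas HEBP1 and FAM234B, which lie between it and EMP1, were not called (-0.21 and -0.21). Around MLPH and RAMP1, 1 of 14 other tested genes was lower and 2 were higher. RAB17, a GTPase of polarised epithelia, was lower (-1.37, adjusted p = 0.00222). COL6A3 was higher (3.88, adjusted p = 0.00780, and 4.49 or 4.52 without HCT116 replicate 2 or 3), as was ESPNL (0.136 against 8.62 CPM, 5.84, adjusted p = 7.70e-07). Around PODXL2 and MGLL 1 of 8 other tested genes was called, PRR20G (higher, 2.58, but adjusted p = 0.0566 without DNMT1 KO replicate 3), and SEC61A1, which overlaps MGLL, was at 524 and 547 CPM.

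**Figure D3:**
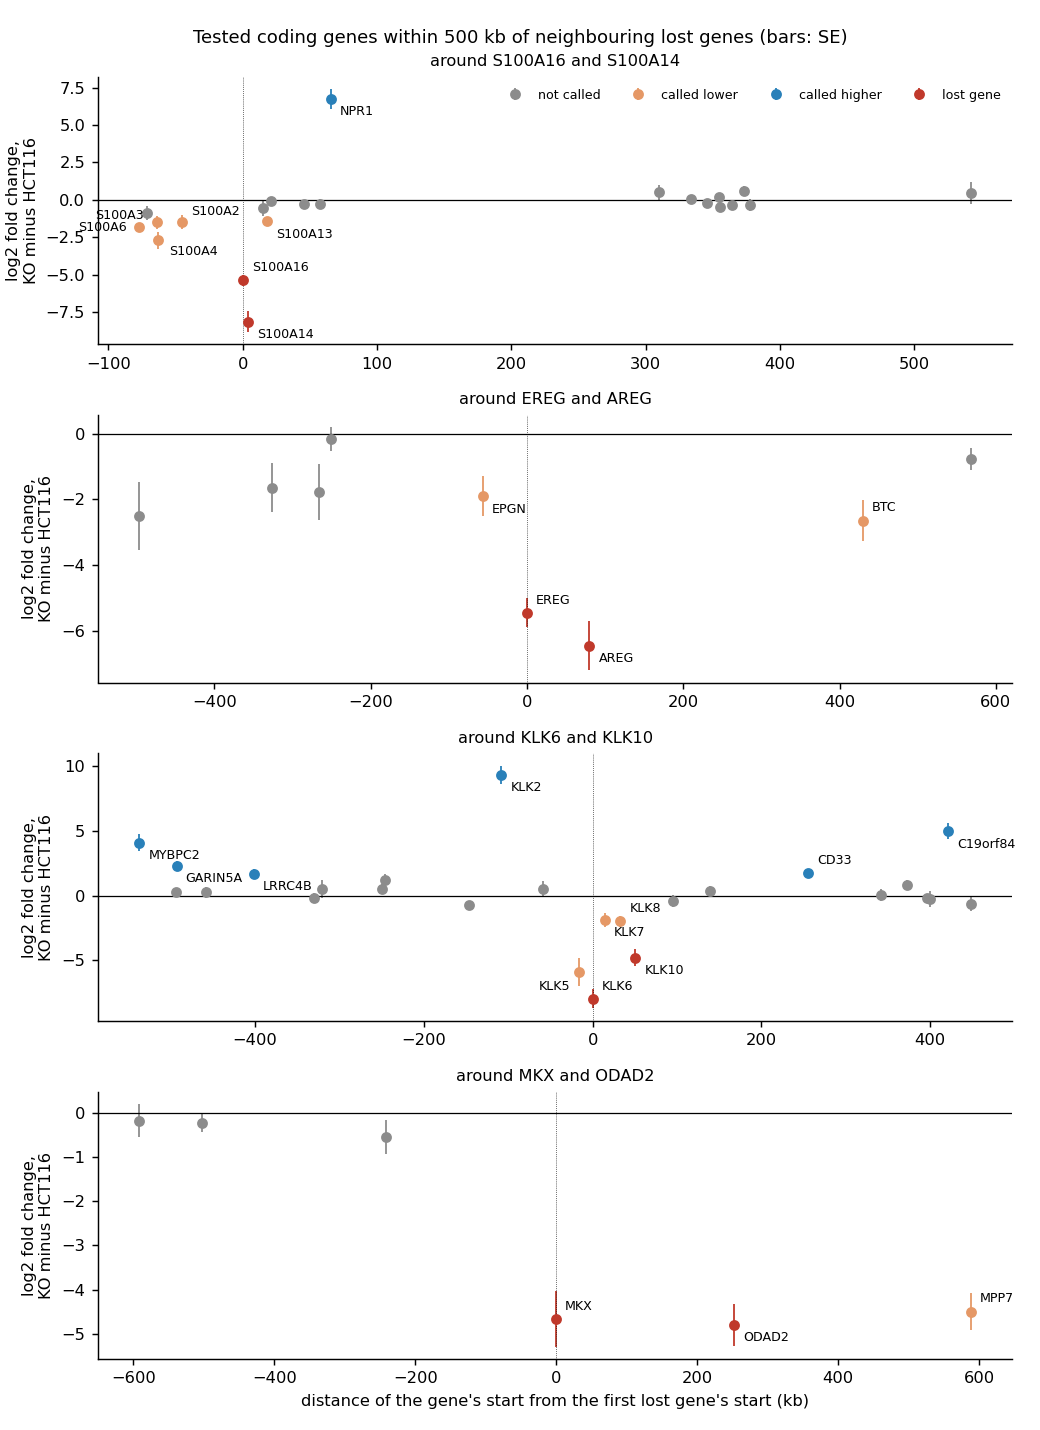
Log2 fold change (DNMT1 KO minus HCT116, bars SE) of tested coding genes around 4 of the 8 pairs, against the distance of each gene's start from that of the first lost gene (kb). Red points are lost genes, orange genes called lower, blue genes called higher and grey genes not called. Genes at -5.37 and -8.13 lie within 100 kb of uncalled genes near 0 in the S100 panel, and the kallikrein panel holds both lost genes and genes called higher.

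The sequence around the start of each gene, which the rule did not use, was compared next. The windows ran from 250 bases before to 50 after the start of the canonical GENCODE transcript, read from hg38 for all 91 genes, because the RefSeq table held 68 of them. The median observed over expected CpG ratio was 0.73 for the 91 genes, 0.87 for the 10045 other candidates with such a window and 0.78 for 18960 autosomal coding genes. A ratio below 0.4 was found for 24 of the 91 genes (26.4%), for 4.32% of the other candidates and for 24.2% of all coding genes. The share among the lost genes thus lay nearer to that of all coding genes than to that of the other genes expressed in HCT116, and no test was made. The 24 genes were ELF3, EHF, ETS1, LIF, IL18, S100A14, S100A16, SYTL3, ANXA10, EMP1, GJB5, MSLN, PROM2, RNF43, LAMB3, TFPI, CPA4, PRSS3, KLK10, CASP4, ACSL5, CYP4F11, C1orf116 and CCDC9B. At the other end, 58 genes (63.7%) had a ratio above 0.6, among them MGMT (1.06), SQLE (1.05), MAL2 (1.03) and MKX (1.03), against 91.1% of the other candidates and 68.0% of all coding genes. With 500 bases on each side the shares below 0.4 were 26.4%, 4.44% and 24.7%. The genes below 0.4 were not all the same in this wider window. LIF (0.64) and KLK10 (0.48) were above it there, and TINAGL1 (0.32) and KLK6 (0.26) were below it.

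**Figure D4:**
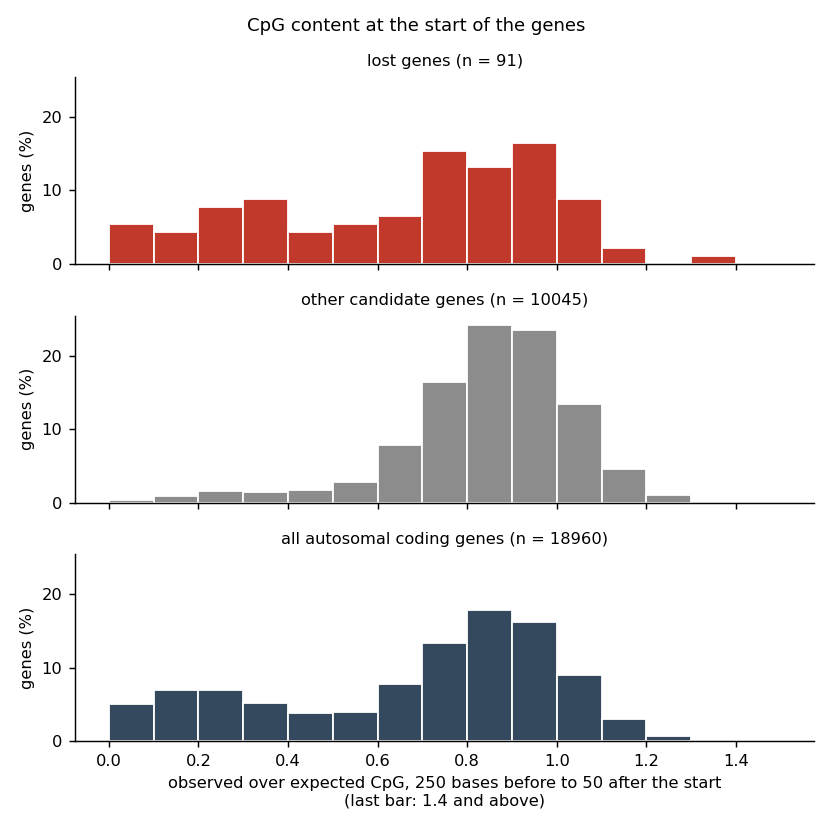
Share of genes (vertical axis, %) by the ratio of observed over expected CpG around the start (horizontal axis), for the 91 lost genes (top), the 10045 other candidates (middle) and 18960 autosomal coding genes (bottom). The lost genes form a low and a high group, with 26.4% below 0.4, where the other candidates have 4.32%.

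Letters of known promoter elements were searched on both strands of the same windows, and none of these strings lies within another. TATAAA was found in 9 of the 91 genes (9.89%), in 4.34% of the other candidates and in 9.70% of all coding genes. The 9 were EREG, AREG, LIF, ELF3, TWIST1, DDIT4L, ANXA10, CPA4 and FAM111B. CCGGAA, a core of sites for ETS factors, was found in 10 of the 91 genes, in 3157 of the 10045 other candidates and in 4363 of the 18960 coding genes. The GC box GGGCGG was found in 57 genes (62.6%), against 78.3% and 61.8%, and CCAAT in 28 (30.8%), against 35.6% and 35.7%. CACGTG was in 5 genes (5.49%, against 10.7% and 8.71%), TGACGTCA in AREG alone (1.10%, against 3.67% and 2.72%) and the NRF1 site in none (against 2.55% and 1.72%). A match is a string of letters and not a binding site.

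Gene families were counted as context. Over all 19279 genes tested, 6.49% were called lower. Among the 12752 tested autosomal coding genes that were not members, 6.67% were lower and 7.83% higher. No family was tested against these shares. For solute carriers 20 of 258 tested genes were called lower and 21 higher, for TMEM genes 8 and 8 of 178, for RAB GTPases 3 and 10 of 65 and for potassium channels 5 and 8 of 44. Glycosyltransferases had 10 lower and 1 higher of 47, ephrins and their receptors 4 and 2 of 17, semaphorins and plexins 5 and 2 of 25, and ADAM proteases 5 and 7 of 23. Tripartite motif genes had 2 and 7 of 41, protein tyrosine phosphatases 1 lower of 27, tetraspanins 2 and 2 of 18, aldehyde dehydrogenases 2 and 1 of 18 and histones 2 and 1 of 33. Among transcription factors, forkhead genes had 5 lower and 4 higher of 32 and SOX genes 2 and 1 of 10. Of 3 GATA genes tested none was called by edgeR, and DESeq2 called 1 higher of 5. The pathway lists had 2 lower and 1 higher of 17 for Hippo, 1 and 4 of 17 for TGF-beta, 2 and 3 of 16 for Notch, and 1 higher of 12 for glutathione and redox genes. Zinc finger genes, which the rule left out, had 51 lower and 22 higher of 414. Scaled by library totals alone, several of these splits moved: glycosyltransferases had 6 lower and 4 higher, zinc finger genes 49 and 40, solute carriers 17 and 27, TMEM genes 6 and 10, potassium channels 3 and 11 and forkhead genes 3 and 5. In the smaller lists it gave 0 and 5 for TGF-beta, 1 and 9 for tripartite motif genes, 3 and 1 for anoctamins, 2 and 2 for histones, for SOX genes and for RAB27 and its effectors, 1 and 1 for Hippo and 1 higher GATA gene. Medians of these lists lay between -0.36 (glycosyltransferases) and 0.40 (SOX genes). The lists written with the members known had lower medians, at -1.77 for ErbB ligands, -1.32 for laminin chains, -3.00 for grainyhead, OVOL and ETS factors, -1.87 for kallikreins, -0.87 for anoctamins, -0.77 for annexins, -0.56 for RAB27 and its effectors and -4.45 for beta-1,3-galactosyltransferases. Cholesterol synthesis enzymes (0.59), ERK output genes (-0.41) and ErbB receptors (-0.58) had smaller ones. These lists were built around members, so their medians are not evidence about the families.

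The levels of the 91 genes also differed among libraries of unedited HCT116. The median coefficient of variation over the 6 libraries was 45.3% for the 91 genes and 31.1% over all candidates, and for 24 genes the highest library was over 5 times the lowest. Replicate 3 was the highest HCT116 library for 46 genes and replicate 9 the lowest for 29. Batch 4 was therefore compared with batches 1 and 2 within HCT116. The rule did not use the batch labels, but its HCT116 mean and its minimum of 1 CPM came from these same libraries. Genes raised in a few of these libraries met the 5% limit more easily. The spread among HCT116 libraries and the calls between batches are therefore given as a description. These libraries also entered the comparison with DNMT1 KO. Of the 91 genes, 22 (24.2%) were called lower in batch 4 by edgeR's quasi-likelihood test and none was called higher, while 8.03% of all 18656 genes tested were called, 4.94% lower and 3.09% higher. At an unadjusted p under 0.05, 44 of the genes were lower and 3 higher, and DESeq2 called 32 lower and 0 higher. Among the 10046 other candidates 5.22% were called lower and 2.39% higher. The log2 difference was below 0 for 71 of the 91 genes, with a median of -0.80, against -0.04 for the other candidates and 0.01 for all genes tested. The count rests on few libraries. It was 41 without replicate 1, 13 without replicate 2, 13 without replicate 3, 11 without replicate 7, 12 without replicate 8 and 7 without replicate 9. What differed between the batches is not stated in the labels, and replicate 1 is the only library of batch 1.

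The 22 genes came from most of the groups. Among them were LAMB3, LAMA3, KLK6, KLK10 and TIMP3 of the matrix group, PROM2, MSLN, PTPRM and PODXL2 of the cell surface, S100A14, MLPH, CALB2 and CGREF1 of the calcium-binding group, ACSL5, MGLL and ACP7 of the enzymes, SHANK2 and SLC15A1 of the channels, and RPS6KA2, ELF3 and FBXO25. LAMB3 had 73.3, 318 and 425 CPM in HCT116 replicates 1 to 3 and 41.9, 28.3 and 26.1 CPM in replicates 7 to 9 (log2 fold change -3.04, SE 0.51, edgeR adjusted p = 0.00541). LAMA3 had 5.48, 9.14 and 28.9 against 2.299, 2.265 and 1.73 CPM (-2.76, SE 0.52, adjusted p = 0.00880). For these 2 genes no library of batch 4 reached any library of batches 1 and 2. PROM2 had 25.1, 6.45 and 13.9 against 2.08, 3.90 and 1.28 CPM (-2.65, SE 0.53, adjusted p = 0.0106), CALB2 had 18.01, 24.9 and 47.3 against 4.99, 6.25 and 3.14 CPM (-2.62, SE 0.42, adjusted p = 0.00425), and KLK10 had 54.7, 33.5 and 57.3 against 10.1, 8.69 and 7.84 CPM (-2.44, SE 0.34, adjusted p = 0.00233). The groups did not overlap for these genes either. Batch 4 means were 32.1 CPM for LAMB3, 2.10 for LAMA3, 2.42 for PROM2, 4.80 for CALB2 and 8.89 for KLK10. Their DNMT1 KO means, in the same order, were 5.45, 0.333, 0.313, 0.730 and 1.18 CPM. Each of these was above 5% of the batch 4 mean, so these genes met the limit through the higher levels of batches 1 and 2. PROM2 lost its call without replicate 7 or 9 and LAMA3 without replicate 7, where adjusted p-values reached 0.0686 and 0.0583. The difference was -1.79 for LAMA3 without replicate 3 and -2.02 for PROM2 without replicate 1. In contrast, EREG (0.04, adjusted p = 0.969), EMP1 (-0.14, adjusted p = 0.827), SQLE (0.50, adjusted p = 0.297), ANO5 (0.21, adjusted p = 0.754) and TWIST1 (-0.05, adjusted p = 0.951) were not called between batches.

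**Figure D5:**
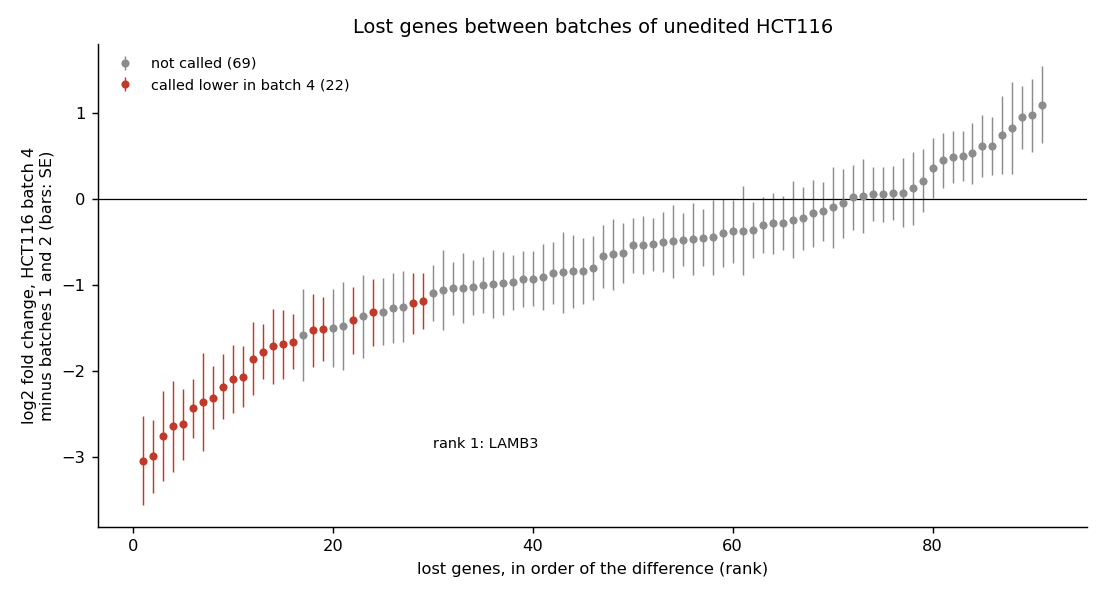
Log2 fold change between batch 4 (replicates 7, 8 and 9) and batches 1 and 2 (replicates 1, 2 and 3) of HCT116 for the 91 lost genes in rank order (bars SE), with the 22 genes called lower in batch 4 in red. Of the 91 points 71 lie below 0, and the lowest is LAMB3 at -3.04.

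Overlapping annotation limits single values. No other annotated gene overlapped 31 of the 91 genes, 60 overlapped at least 1 gene of any kind, and 16 overlapped another coding gene, such as ADAM19 with CYFIP2 and NIPAL4, carboxypeptidase M with MDM2, TIMP3 with SYN3 and MGLL with SEC61A1. No strand option is named for the counting, so reads from a gene and its antisense partner cannot be told apart. Carboxypeptidase M was the gene with the highest share within batch 1, at 13.9% of HCT116.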

How the data were processed

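The members and the gene lists were chosen with earlier results of these data known. Polyadenylated RNA was sequenced as stranded paired-end libraries. According to the study's methods, the authors trimmed reads with Trim Galore 0.4.1, checked them with FastQC 0.11.4, aligned them with bowtie2 to hg38 without splicing, kept mapping qualities of 10 or more and counted exonic reads with featureCounts. What the authors deposited are unnormalised read counts, 1 table per library, and 10 tables of labelled libraries were used. Reads over exon junctions are not split by bowtie2, so many of them are missing from the counts. A further 3 tables, of other HCT116 replicates, match no listed sample and were not used here.

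CPM is a gene's count scaled to the library total. Genes were annotated with GENCODE release 44 (hg38), and promoters are from RefSeq (GRCh38.p14), whose 68 member windows matched hg38. Counts were tested with edgeR 4.0.16 in R 4.3.3 (TMM, filterByExpr, glmQLFit and glmQLFTest, two-sided, Benjamini-Hochberg over all genes tested). Calls needed both an adjusted p below 0.05 and an absolute log2 fold change above 1. DESeq2 1.42.0 served as an alternative. The fits were tested on simulated data. Genes named in full were the 12 members highest in HCT116, members with no DNMT1 KO count, the 3 genes on each side of the limit, members within 500 kb of another, the 6 with the largest change between batches among those called and the member with the highest single DNMT1 KO library. The remaining members are named once, and a few genes are not reported here. For 3 genes named outside the limit, group means are given. Roles were assigned from textbook knowledge. Depth per library was 26700853 to 85991812 counts. Alternatives were other size factors, filters, rules and tests, batch and replicate terms, and each replicate left out. Python 3.11.15, pandas 2.3.3 and scipy 1.17.1 were used for the rest.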

Additional observations from a re-analysis of the deposited data

Results flagged for a closer look

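Of 66 sets of 4 or 6 library values of the genes described in full, 15 held 1 library whose gap to the rest passed Dixon's 95% critical value, where about 1 in 20, or 3.3, would be flagged by chance. DNMT1 KO replicate 3 was the highest library for 9 of them. In that library MKX was at 7.38 CPM (0.857 to 1.12 in the other 3), AREG at 6.08 CPM (1.58 to 1.76), LAMB3 at 9.55 CPM (3.97 to 4.19), SHANK2 at 3.59 CPM (0.262 to 0.701), ADAMTS14 at 3.01 CPM (0.267 to 0.350), MLPH at 0.772 CPM, ODAD2 at 1.51 CPM, CALB2 at 1.51 CPM and LAMA3 at 0.897 CPM. HCT116 replicate 3 stood apart for ADAM19, at 547 CPM against 150 to 276 CPM, and for LAMA3, at 28.9 CPM against 1.73 to 9.14 CPM. HCT116 replicate 1 was highest for ANO1, at 148 CPM against 40.6 to 70.0 CPM, and for RAMP1, at 49.6 CPM against 17.6 to 22.8 CPM. MKX was at 94.2 CPM in HCT116 replicate 2 against 40.5 to 55.1 CPM in the others. ENSG00000269825 was at 11.2 CPM in HCT116 replicate 9 against 1.36 to 4.68 CPM. No cause of these values was tested.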

How the results depend on the processing

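All 91 genes were called lower in DNMT1 KO in each alternative except a filter on at least 10 counts in every library, which keeps few of them and left 33. That filter gave 766 lower and 734 higher genes in all, and batch 2 alone gave 798 and 815, against 1251 and 1431. Leaving out 1 library gave 987 to 1250 lower and 1214 to 1587 higher. Library totals in place of TMM gave 956 lower and 1878 higher and moved the median of all genes from -0.07 to 0.14 and that of the 91 genes from -6.25 to -6.04, so families with medians near 0 change sign with the scaling. DESeq2 gave 1554 and 2103. The number of genes meeting the rule was 49 at a limit of 2%, 141 at 10%, and 47 when the highest DNMT1 KO library had to be at most 5% of the lowest HCT116 library. It was 61 to 104 with other CPM minimums, 102 on TMM-scaled totals, 114 in batches 1 and 2 alone and 85 to 110 with 1 library left out. Between HCT116 batches, DESeq2 gave 1420 lower and 1085 higher genes and no filter gave 1280 higher, against 921 and 577. With 1 library left out the counts were 187 to 1770 lower and 46 to 1800 higher, and for the 91 genes 7 to 41 lower and 0 to 2 higher. Without a filter 1 of the 91 genes was higher. For replicates 1 to 3, deviations of same-numbered libraries from the means of their lines had correlations of 0.44, -0.19 and 0.37. Differently numbered libraries were not correlated for comparison, so whether the replicate numbers pair the libraries was not settled. A replicate block gave 1235 lower and 1232 higher genes, all 91 among the lower. The difference of the median CpG ratio from other candidates was -0.14, and -0.12, -0.05 and -0.17 with 500 bases on each side, against all coding genes and, chosen after seeing the data, in the RefSeq table. Values of list genes and neighbours with 1 library left out were also added after seeing the data. Depth limits the genes with under 10 DNMT1 KO counts.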
